A study of Mus musculus with 2 samples.

Results

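The BCL2 family decides whether a cell keeps its mitochondria intact or commits to apoptosis. Of 10 listed genes of this family, 9 were read on the arrays: the BH3-only genes Pmaip1, Bbc3, Bid, Bik and Bcl2l11, the effector gene Bak1, and the pro-survival genes Bcl2, Bcl2l1 and Mcl1. The genes were taken by name, as probe sets (groups of short probes read as 1 signal) whose platform annotation names a single mouse gene. They held 30 of the 45037 probe sets and 9 of the 18193 named genes. Bax, the other effector gene, had no probe set under this rule and was not analysed here. The cells were primary mouse embryonic fibroblasts (MEFs) of the strain C57BL/6, taken at 13.5 days of gestation and used at passage 2. The control array carried RNA of cells given GapmeR Control, a non-targeting antisense oligonucleotide, and the AK156230 array that of cells given GapmeR AK156230, an oligonucleotide that lets RNase H cut the long noncoding RNA of that name. Each condition had 1 array, no probe set was annotated to AK156230 and so its own level could not be checked, and the labels do not say how many embryos or cultures gave the RNA. The comparison asks which messages of the apoptosis machinery differ when this RNA is silenced in young cells. No difference below has a replicate check, no p-value is given, and the number of arrays limits the precision.

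Pro-survival proteins of the family hold the effectors BAX and BAK in check on the outer mitochondrial membrane. BH3-only proteins are made or activated under stress, bind the pro-survival proteins or the effectors themselves, and so allow pores to form through which cytochrome c escapes to activate caspases. Several BH3-only genes are known targets of transcription factors, Pmaip1 and Bbc3 of p53 and Bcl2l11 and Bbc3 of forkhead (FOXO) factors. In senescent cells the family is known for setting resistance to death. Much of its control lies in protein turnover and cleavage, which arrays of RNA do not read.

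Among the members whose promoters were searched, Bbc3 and Bcl2l11 held a forkhead match, and those stretches are shown because both genes are known targets of forkhead factors. Promoters came from RefSeq on GRCm38.p6, as windows of 300 bases that run from 250 before to 50 after a transcript start. Windows were found for 8 of the 10 listed genes, 13 in all, with 3 each for Bbc3 and Bcl2l1 and 2 for Bcl2l11, and some windows of a gene overlap. Pmaip1 and Bik were not searched. The forkhead motif was searched as GTNAACA on both strands, and it was found in 3 of the 13 windows, against 10.4% of all 32851 windows. The capitals mark the match, which lies at -227 and -168 from the start for the windows of Bcl2l11 and at -167, on the opposite strand, for Bbc3. None of these matches overlapped a match of the other motifs searched. These were the p53 half-site, found in 1 of the 13 windows, that of Bax, and in 8.36% of all windows, and the GC box GGGCGG, found in 9 of the 13 and in 35.7% of all. A match is a stretch of letters and not a measured binding site. All 3 stretches lie on the plus strand and are written 5′ to 3′.
Bcl2l11, chr2:128125788-128125857: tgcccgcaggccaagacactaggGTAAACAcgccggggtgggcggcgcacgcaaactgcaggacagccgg
Bcl2l11, chr2:128127367-128127453: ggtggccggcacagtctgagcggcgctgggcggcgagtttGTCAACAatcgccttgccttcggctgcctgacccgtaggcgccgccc
Bbc3, chr7:16310054-16310140: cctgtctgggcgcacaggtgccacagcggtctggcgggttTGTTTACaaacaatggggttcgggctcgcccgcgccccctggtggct

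After transfection with GapmeR AK156230, Pmaip1 was the only member higher by 2-fold or more, and no member was lower by that much. The other 8 genes lay within 1.42-fold at their brightest probe set. Counted by gene, 1 of 9 was higher and 0 of 9 were lower by 2-fold or more, where 1.59% of all named genes were higher and 3.85% were lower. Counted by probe set, 2 of 30 were higher and 0 of 30 were lower, against 1.45% and 3.28% of all probe sets. One more of the family's probe sets therefore passed 2-fold than genes did, and it belongs to Bcl2l11. The log2 ratio of the AK156230 array over the control array was above 0 in 20 of 30 probe sets (66.7%) and in 6 of 9 genes. The shares were 42.2% of all probe sets and 41.2% of all genes. Probe sets of a gene are not independent readings, and the 20 include all 6 of Mcl1 and all 5 of Bcl2l11. All 9 members reached the median signal of the brighter array, and 43.2% of all genes that did so were above 0. A lean of the family as a whole was not tested. The median log2 ratio of the 9 genes was 0.17 and that of all named genes was -0.07. With both arrays scaled to the same median, the median of all genes moved by 0.11 on the log2 scale, and the share above 0 was then 7 of 9 members and 53.7% of all genes. A gene with several probe sets is represented here by the brightest, and every probe set is given below.

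**Figure D1:**
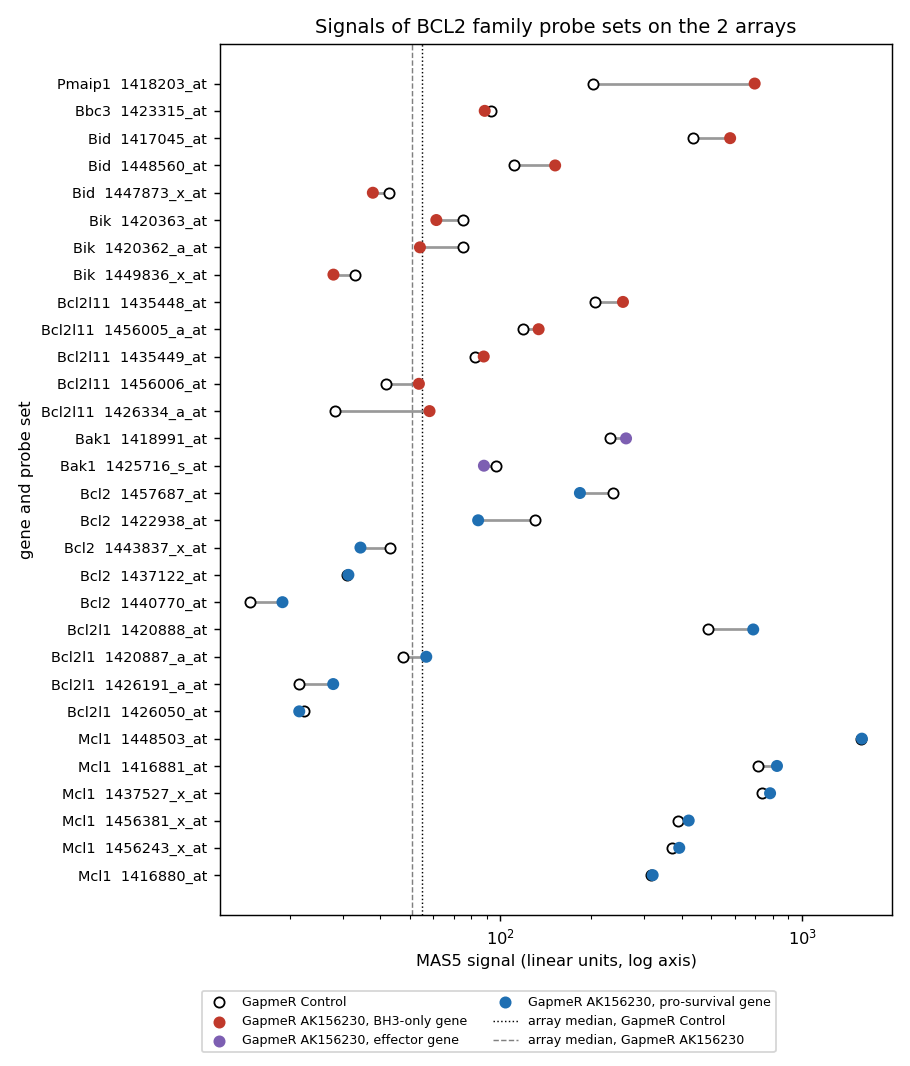
MAS5 signal (linear units on a log axis) of each of the 30 probe sets of the family, with an open circle for GapmeR Control, a filled circle for GapmeR AK156230 coloured by class, and a line joining the values of a probe set; vertical lines mark the array medians of 54.8 and 50.95. Pmaip1 spans 202.14 to 695.91, while the 6 probe sets of Mcl1 nearly coincide on the arrays.

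Pmaip1 encodes Noxa, a small BH3-only protein that binds Mcl1 and promotes its degradation. Its signal was 202.14 on the control array and 695.91 on the AK156230 array, 3.44-fold higher. This log2 ratio of 1.78 was the 59th highest of the 18193 named genes, and 99.7% of them had a lower ratio. It was the 55th among the 12319 genes whose signal reached the median of the brighter array. The array carried a single probe set for Pmaip1, so no other probe set checks its value, and the gene lies on chromosome 18 of GRCm38.p6 from 66458604 to 66465558.

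Bbc3 encodes PUMA, a BH3-only protein that binds all the pro-survival members and, like Noxa, is induced by p53. Its only probe set read 93.26 on the control array and 88.70 on the AK156230 array. This was 1.05-fold lower, and 50.1% of all named genes had a lower ratio, which places Bbc3 in the middle of the array. Its sign depended on the scaling, with a log2 ratio of -0.07 as deposited, 0.03 with arrays scaled to the same median and 0.01 after quantile normalization. Pmaip1 and Bbc3, named above as p53 targets, were thus read once each, and their log2 ratios were 1.78 and -0.07. Foxo3, which encodes a forkhead factor, had signals of 464.27 and 476.81, a log2 ratio of 0.04 that was -0.03 as the mean of its 3 probe sets.

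Bcl2l11 encodes Bim, a BH3-only protein that can engage every pro-survival member and is made in several splice forms. All 5 of its probe sets had log2 ratios above 0, from 0.10 to 1.04. The brightest read 205.19 on the control array and 254.71 on the AK156230 array, 1.24-fold higher. The largest ratio came from the dimmest probe set, with signals of 28.33 and 58.21, 2.05-fold higher. Its control signal lay below the array's median of 54.8, close to the 25th percentile of 25.03. With 24.3, the 25th percentile of all signals, added to every signal, its log2 ratio was 0.65 instead of 1.04. The other 3 probe sets of Bcl2l11 read 118.88 and 133.83, 82.41 and 88.03, and 41.86 and 53.67 with GapmeR Control and GapmeR AK156230 respectively. A higher signal was thus seen at every probe set of the gene, but 2-fold was passed only at the dimmest.

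Bid encodes the BH3-only protein that caspase-8 cleaves, which links death receptors to mitochondria. Its brightest probe set read 436.05 on the control array and 577.04 on the AK156230 array, 1.32-fold higher. A second read 110.74 and 151.81, 1.37-fold higher. The third, whose identifier ends in _x_at because its probes may bind other messages, read 42.66 and 37.77 and was below the array median on both arrays. The brighter pair thus gave nearly the same ratio and the dim one lay on the other side of 0.

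Bik, a BH3-only gene whose protein sits mainly at the endoplasmic reticulum, had log2 ratios below 0 at all 3 of its probe sets. The brightest read 75.42 on the control array and 61.31 on the AK156230 array, and the others read 75.06 and 54.10, and 32.87 and 27.96. The ratios ran from -0.47 to -0.23, all within 2-fold. Bik was the BH3-only gene with the lowest ratio, and 25.7% of all named genes had a lower one.

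**Figure D2:**
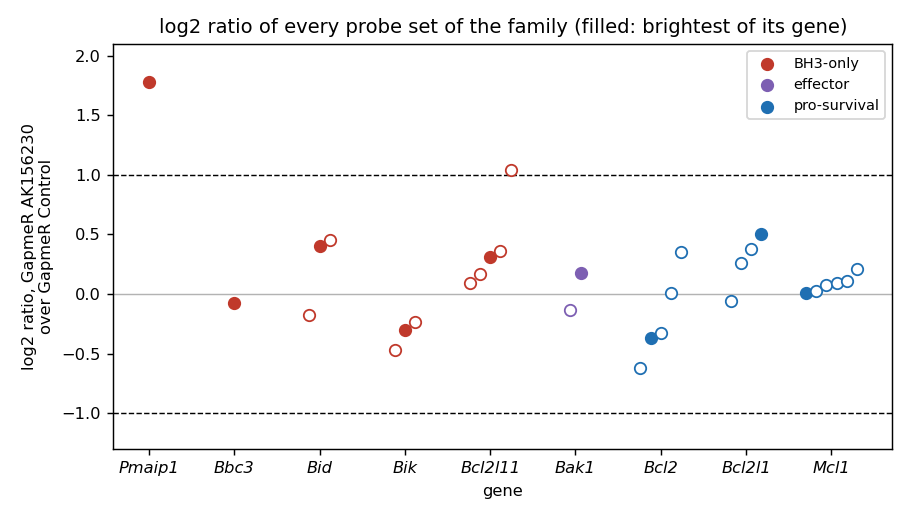
log2 ratio of the AK156230 array over the control array (y axis) for every probe set of the 9 genes (x axis), coloured by class, where a filled point is a gene's brightest probe set and the dashed lines stand at 2-fold. Pmaip1 stands at 1.78, a dim probe set of Bcl2l11 at 1.04, and the other 28 probe sets lie between -0.62 and 0.50.

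Bak1 encodes BAK, which sits in the outer mitochondrial membrane and forms pores once activated. Its brightest probe set read 231.36 on the control array and 260.77 on the AK156230 array, 1.13-fold higher. The other read 96.93 and 88.16, 1.10-fold lower. The probe sets of Bak1 thus fell on either side of 0, and the mean of their log2 ratios was 0.02.

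Among the pro-survival genes, Bcl2l1 had the highest log2 ratio, Bcl2 the lowest and Mcl1 a value near 0. Bcl2l1 encodes Bcl-xL, which guards mitochondria in many cell types. Its brightest probe set read 485.79 on the control array and 688.23 on the AK156230 array, 1.42-fold higher, and 92.7% of all named genes had a lower ratio. Its other 3 probe sets lay below the median on the control array, with signals of 47.46 and 56.78, 21.42 and 27.91, and 22.41 and 21.54. The first of them was above the median on the AK156230 array. The log2 ratios of the 3 ran from -0.06 to 0.38. After Pmaip1, Bcl2l1 had the highest ratio of the 9 genes.

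Bcl2, the founding pro-survival gene of the family, had the lowest log2 ratio of the 9 genes, at -0.37. Its brightest probe set read 236.55 on the control array and 183.41 on the AK156230 array, 1.29-fold lower. The next read 129.76 and 84.36, 1.54-fold lower, which was the lowest ratio of all 30 probe sets. The other 3 read 43.12 and 34.36, 31.10 and 31.34, and 14.81 and 18.95, all below the array medians, and their log2 ratios ran from -0.33 to 0.36. Both probe sets above the median were therefore lower with GapmeR AK156230, while the dim ones lay on both sides of 0. Bcl2 is the longest of the 9 genes, with 176 kb on chromosome 1 from 106538176 to 106714290. Of the 779 genes over 160 kb whose signal reached the median, 25.4% passed 2-fold downwards and the median log2 ratio was -0.43, so the value of Bcl2 was close to the middle of its length class. The other members were shorter, from 6.24 kb for Mcl1 to 75.1 kb for Bcl2l1. The part of gene length in the value of Bcl2 was not tested.

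Mcl1 encodes a short-lived pro-survival protein and is the partner that Noxa binds. Its 6 probe sets read between 314.60 and 1563.48 on the control array and between 319.49 and 1576.89 on the AK156230 array. Each was higher with GapmeR AK156230, by log2 ratios from 0.01 to 0.21, and the brightest, at 1563.48 and 1576.89, differed by 1.01-fold. Their ratios spanned 0.20 on the log2 scale, the narrowest range of the 4 genes with 4 or more probe sets. Mcl1 was thus the member read most often and most alike, and its message differed little between the arrays where that of its partner Pmaip1 was 3.44-fold higher.

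How far probe sets of the same gene differ on these arrays gives a scale for these values. For the pair of brightest probe sets of 4806 genes, both at or above the median mean signal, the log2 ratios differed with a spread (SD for a single probe set) of 0.258, and for 3140 genes with pairs of dimmer probe sets the SD was 0.405. This spread lies within a single pair of arrays and leaves out the difference between cultures. The log2 ratio of 1.78 for Pmaip1 was far larger than that spread. As deposited, those of Bcl2l1 (0.50), Bid (0.40), Bcl2 (-0.37), Bcl2l11 (0.31) and Bik (-0.30) were larger than 1 such SD in size. Those of Bak1 (0.17), Bbc3 (-0.07) and Mcl1 (0.01) were smaller than it. For Bik, Bid, Bcl2 and Bak1 the side of this SD depended on the processing.

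**Figure D3:**
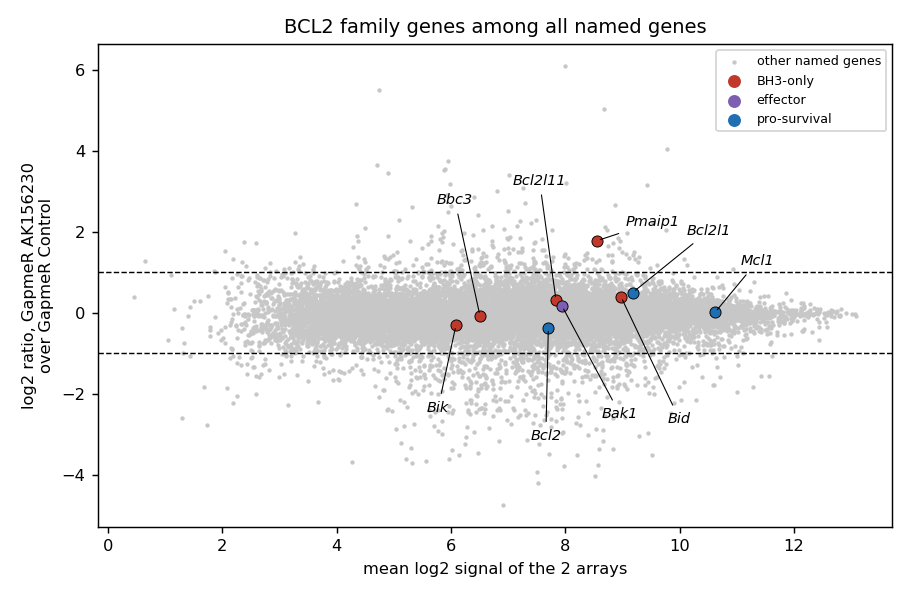
log2 ratio of the AK156230 array over the control array (y axis) against the mean log2 signal of the arrays (x axis) for all 18193 named genes in grey and the 9 members in colour, with dashed lines at 2-fold. Pmaip1 at 1.78 lies above the 2-fold line and the other 8 members lie inside the band, between -0.37 for Bcl2 and 0.50 for Bcl2l1.

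Of 11 other genes of the family with a probe set, from a list of 15, past 2-fold there were 1 higher gene and 1 lower gene. Among all named genes, 1.59% were higher and 3.85% lower by that much. The median log2 ratio of the 11 genes was -0.09. Bcl2l15, a BCL2-like gene, was 3.77-fold higher, but its signals were 15.41 and 58.03, and its log2 ratio was 1.05 with the offset against 1.91 as deposited. Bnip3, whose protein marks mitochondria for removal by autophagy, was 2.27-fold lower, with 1197.01 on the control array and 527.52 on the AK156230 array. Bcl2l15 and Bnip3 had 1 probe set each, so no other probe set checks their values. The pro-survival gene Bcl2l2, which encodes Bcl-w, had log2 ratios from 0.25 to 0.45 over its 4 probe sets. The BH3-only genes Bad, Bmf and Hrk had log2 ratios of -0.16, -0.34 and -0.09 at their brightest probe sets. Bcl2a1a, Bcl2a1b, Bcl2a1d and Bnip3l had no probe set naming them alone and were not analysed here.

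Downstream of the mitochondria, 15 of 17 listed apoptosome, caspase and inhibitor of apoptosis (IAP) genes were read. Past 2-fold there was 1 higher gene and no lower one, where 1.59% of all named genes were higher and 3.85% lower. Of the 15 genes, 10 had log2 ratios above 0, against 41.2% of all genes, and the list's median was 0.21. Dffb, the nuclease that cuts DNA in dying cells, was 2.38-fold higher at its brightest probe set, with 59.39 and 141.51, while its other probe set had a log2 ratio of -0.01. Apaf1, the scaffold of the apoptosome, read 461.81 on the control array and 626.28 on the AK156230 array, 1.36-fold higher, and its other probe set had a log2 ratio of 0.79. Cycs, which encodes cytochrome c, was 1.23-fold higher at its brightest probe set, and the log2 ratios of its 4 probe sets ran from -0.05 to 0.38. Casp9, the caspase that the apoptosome activates, was 1.04-fold lower, and its 3 probe sets ran from -0.22 to -0.06.

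Of 7 death receptor genes read from a list of 8, Cflar alone passed 2-fold upwards and no gene passed it downwards. The shares over all named genes were 1.59% upwards and 3.85% downwards. Cflar encodes FLIP, which blocks caspase-8 and so the cleavage of Bid. It read 289.96 on the control array and 708.20 on the AK156230 array, 2.44-fold higher, and its 5 probe sets had log2 ratios from 0.28 to 1.29, all above 0, with a mean of 0.84. Fas, the receptor that recruits caspase-8, was 1.92-fold higher (188.41 and 361.84), just within the threshold, and passed it with both arrays scaled to the same median, at a log2 ratio of 1.05. Casp8 itself read 504.50 and 454.72, 1.11-fold lower. Tnfrsf1a had the lowest ratio of the list, with 929.66 on the control array and 614.58 on the AK156230 array, 1.51-fold lower.

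Of 16 regulators and partners of BCL2 proteins read from a list of 17, 1 passed 2-fold downwards and 0 upwards. Over all named genes, 3.85% passed it downwards and 1.59% upwards. The list's median log2 ratio was 0.02. Huwe1, the ubiquitin ligase that sends Mcl1 for degradation, read 823.83 on the control array and 349.72 on the AK156230 array at its brightest probe set, 2.36-fold lower. Its 5 probe sets disagreed, with log2 ratios from -1.24 to 0.75 and a mean of -0.28. Fbxw7, which also marks Mcl1, had log2 ratios of 0.50 and 0.82. Usp9x, which removes ubiquitin from Mcl1, had -0.45 at its brightest probe set. Its 7 probe sets lay on both sides of 0, from -0.51 to 0.34, with a mean of -0.21. Mdm2, the ubiquitin ligase of p53 and a p53 target, was 1.86-fold higher (1187.20 and 2205.67), although its 3 probe sets ran from -0.18 to 1.33. Trp53 itself was not analysed here. Bcl2l2, Bad, Bmf, Hrk, Apaf1, Cycs, Casp9, Casp8, Fas, Tnfrsf1a, Mdm2, Fbxw7, Usp9x and Foxo3 were named after their values were seen.

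**Figure D4:**
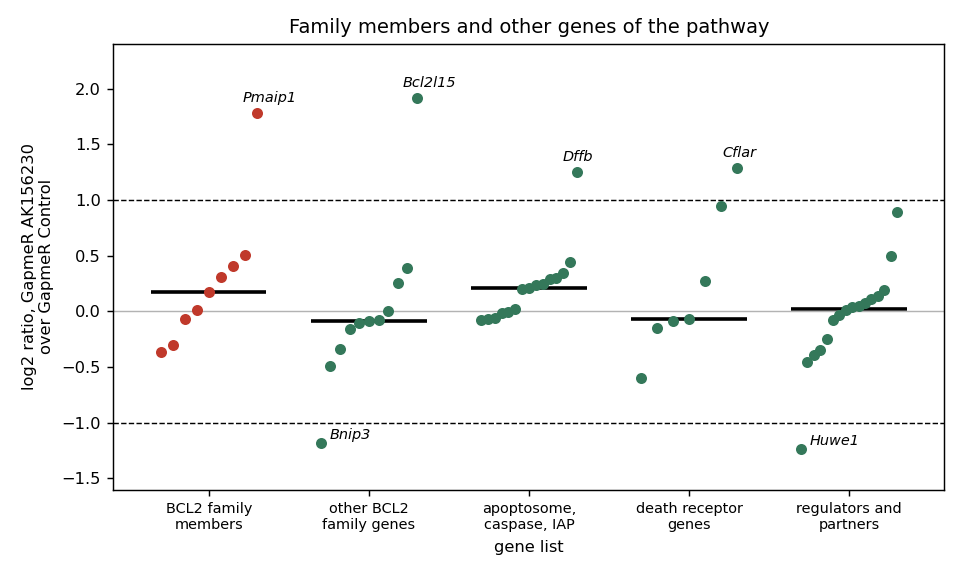
log2 ratio of the AK156230 array over the control array (y axis) for each gene of the 9 members and of the 4 other lists (x axis), taken from its brightest probe set, where black bars are medians of the lists and the dashed lines stand at 2-fold. Medians lie at 0.17, -0.09, 0.21, -0.07 and 0.02 from left to right, and the genes past 2-fold are named.

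The arrays had median signals of 54.8 on the control array and 50.95 on the AK156230 array and a Pearson correlation of 0.97 across the log2 signals of all probe sets. Of the probe sets past 2-fold 69.3% were lower, and 57.2% with arrays scaled to the same median. All 12 fibroblast markers read were at or above the array's median, with summed signals of 41815 on the control array and 27975 on the AK156230 array. Past 2-fold there were 5 lower fibroblast markers and no higher one, where 3.85% of all named genes were lower and 1.59% higher. The summed signals were 1252.7 and 1270.6 for 7 macrophage and leukocyte markers, 120.66 and 158.33 for 4 endothelial markers, 497.27 and 901.7 for 7 keratinocyte and epithelial markers, and 243.05 and 785.46 for 6 skeletal muscle markers. In the same order, 5 of 7, 1 of 4, 4 of 7 and 3 of 6 of these markers reached the median of the brighter array. Higher by 2-fold or more were Cd68 (108.03 and 274.59) and Cd14 (95.25 and 225.40) of macrophages, and Kdr (44.54 and 90.91) of endothelium. The epithelial markers past 2-fold were Krt18 (126.94 and 298.63) and Dsp (39.30 and 319.21), and those of muscle were Chrna1 (39.66 and 418.27) and Tnnt2 (59.74 and 250.21). Log2 ratios ran from 0.20 to 3.02 over the 3 probe sets of Dsp and from -0.34 to 2.07 over the 3 of Tnnt2. Above 0 were 2 of 7 macrophage and leukocyte, 2 of 4 endothelial, 5 of 7 epithelial and 4 of 6 muscle markers. Those below 0 included Itgam (-0.92), Adgre1 (-0.56), Myod1 (-0.76) and Actn2 (-0.32). The log2 ratio of Kdr was 1.03, and it no longer counted with the offset or with a minimum signal at the 75th percentile. No marker of other cells passed 2-fold downwards at its brightest probe set, but the muscle marker Myod1 did as the mean of its probe sets (-1.08). Below the median on both arrays were, among others, Ptprc (30.89 and 25.85), Pecam1 (33.63 and 27.76), Krt5 (36.63 and 36.83) and Myog (25.91 and 29.53), while the macrophage markers Lyz2 (724.68 and 526.64) and Csf1r (174.17 and 141.55) were above it on both arrays. These markers were named after their values were seen. The part of the markers that moved in the values of the BCL2 family was not tested, and fewer cells of a type and less RNA per cell cannot be told apart in RNA from a whole culture.

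**Figure D5:**
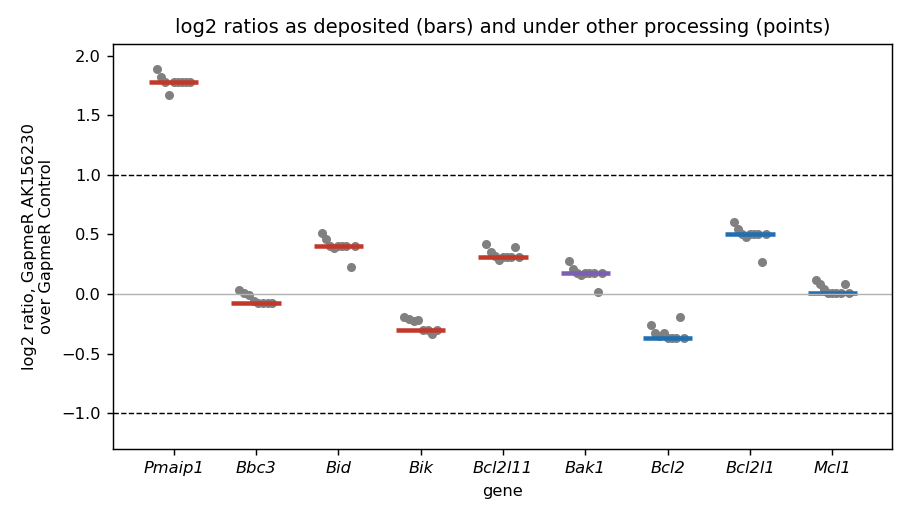
log2 ratio of the AK156230 array over the control array (y axis) of the 9 genes (x axis) from the deposited signals as a bar coloured by class, and under each other way of processing that leaves the gene measured as grey points, with dashed lines at 2-fold. Pmaip1 ranges from 1.67 to 1.89 and no other gene reaches 2-fold.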

How the data were processed

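RNA of each condition was hybridized to an Affymetrix array. Deposited were intensity values that the authors computed with MAS5 (version and target of the scaling: not given in the sources used here), linear and scaled within each array, without detection calls. A porcine array stands in the paper's methods, but the labels give mouse RNA, and the platform's mouse annotation was used: 34945 probe sets had 1 symbol, 932 several, and 9160 were not listed. Symbols went through Entrez IDs; positions and lengths came from RefSeq genes of GRCm38.p6.

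Signals were compared as log2 ratios with no offset, and a difference of 2-fold or more was counted. The group test named in the methods needs several arrays per condition, so none was run. The brightest probe set (mean log2 signal) stood for its gene. Named are all members and, from each of the 4 pathway lists, up to 4 genes past 2-fold that reached the median of the brighter array; others are marked as named later. Members and lists were chosen with earlier results of these data known. Alternatives were scaling to the same median, quantile normalization, loess (span 0.3), an offset of 24.3, minimum signals at the 25th, 50th and 75th percentiles, thresholds of 1.5-fold and 3-fold, means over probe sets, and dropping _x_at and _s_at probe sets. Counting was tested on simulated data. Python 3.11.15, numpy 2.4.6, pandas 2.3.3, statsmodels 0.14.6 and matplotlib 3.10.9 were used.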

Additional observations from a re-analysis of the deposited data

How the results depend on the processing

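Under each of the 11 alternatives, 1 member gene (higher) and 0 lower member genes passed the threshold in use. That threshold was 1.5-fold or 3-fold in the alternatives that changed it. Only the scaling, quantile normalization, loess and offset changed the log2 ratio of Pmaip1, the higher gene. The other alternatives left it at 1.78. The median log2 ratio of the measured members ranged from 0.09 to 0.31 over the 9 alternatives that left the threshold as it was. The number of member probe sets higher by 2-fold or more was 1 instead of 2 with the offset of 24.3, with a minimum signal at the 75th percentile and at the 3-fold threshold, since the dim probe set of Bcl2l11 no longer counted. The number lower was 1 instead of 0 at the 1.5-fold threshold, from Bcl2. Of all 45037 probe sets, 2472 were higher and 4225 lower at the 1.5-fold threshold, and 160 and 511 at the 3-fold threshold. Minimum signals at the 75th percentile left 7 of the 9 genes, without Bbc3 and Bik. The log2 ratio of Pmaip1 ranged from 1.67 to 1.89. The sign of Bbc3 turned under 2 of 8 alternatives. Bik fell below the probe set SD of 0.258 in size with scaling (-0.19), quantile normalization (-0.21), loess (-0.22) and the offset (-0.22). As means over probe sets, Bid (0.23) and Bcl2 (-0.19) fell below that SD. Bak1 rose above it with scaling to the same median (0.28). With the mean of all probe sets Dffb (0.62), Cflar (0.84) and Huwe1 (-0.28) were within 2-fold, as was Dffb (0.99) with the offset. No paired analysis was possible because each condition had 1 array with no replicate number.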
